A study of Homo sapiens with 6 samples.

Results

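The genes described here are the enzymes of glycolysis together with the genes that respond to low oxygen, chosen by name as a list of 36. All 36 were among the 23617 gene symbols measured in MDA-MB-231, and 35 of them reached 1 FPKM in at least 1 library, as did 12525 symbols in all. FPKM, the number of fragments scaled to the length of a transcript and the mapped fragments of a library, is a level per length, so values of different genes can be set side by side. MDA-MB-231 is a triple-negative breast cancer line of mesenchymal type, and HMLER is a line of human mammary epithelial cells transformed in culture with telomerase, the SV40 early region and oncogenic RAS. In each line, cells left untreated were set against cells given 10 µM DAC (5-aza-2′-deoxycytidine, decitabine, an inhibitor of DNA methyltransferases) every day and collected at 72 h. MDA-MB-231 had 1 library per condition and HMLER 2, and each library was a pool of independent RNA extractions. For HMLER the values analysed were merged over the 2 libraries of a condition and covered 2009 transcripts of 1854 symbols, all of them more than 2-fold higher after DAC, so nothing can be said of genes that were lower or level there. With 1 library per condition, no difference in MDA-MB-231 has a replicate check, and no p-value is given. One label field of the untreated MDA-MB-231 library carries another cell line number, while its title gives MDA-MB-231.

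Glycolysis splits glucose into pyruvate. Its upper steps spend ATP and its lower steps recover it, and lactate dehydrogenase then turns pyruvate into lactate, which leaves the cell through monocarboxylate transporters. When oxygen falls, the alpha subunits of the hypoxia-inducible factors, HIF1A and EPAS1 (HIF-2 alpha), escape prolyl hydroxylation and degradation, pair with ARNT and raise transcription of many of these genes by binding a short motif with the core ACGTG or GCGTG. In carcinoma cells much of this program also runs in oxygen. Several of its genes have a minor isozyme with a narrow tissue range beside a housekeeping one, for example ALDOC beside ALDOA and ENO2 beside ENO1.

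Of the markers of MDA-MB-231, VIM, CD44, AXL, CAV1 and MSN lay between 212 and 3066 FPKM in the untreated library, ESR1, PGR and CDH1 were at 0, and EPCAM was at 7.90. VIM and AXL were themselves more than 2-fold lower after DAC, VIM at 1134 FPKM and AXL at 127. Of basal keratins known in mammary epithelial lines, KRT5, KRT14 and KRT17 were present in untreated HMLER at 6.33 to 11.6 FPKM, and all 3 were listed as higher after DAC. The deposited values gave no library sizes, but the low values of single-transcript genes fell on whole multiples of the worth of 1 read. Without any rescaling between libraries this would correspond to about 43100000 reads without DAC and 42900000 with it. The scaling used is not given, so these may be scaled totals and not library sizes. Total FPKM was 589238 untreated and 480455 after DAC, a ratio of 0.815, and among 11292 symbols with at least 1 FPKM in each library the median ratio was 0.912, or -0.13 on the log2 scale. Ratios are given here as deposited, as DAC-treated over untreated, and these shifts stand beneath each of them.

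After DAC, 5 of the 35 genes at 1 FPKM were more than 2-fold higher, where 10.8% of all such symbols were. They were SLC16A1, ALDOC, EPAS1, EGLN3 and ANGPTL4. SLC16A1, EGLN3 and ANGPTL4 were below 1 FPKM untreated, and any such symbol could pass the filter only by being higher. None of the 35 was more than 2-fold lower, where 4.82% of all symbols were. At 1.5-fold the lower side held 9 genes, SLC16A3, PFKM, GAPDH, PGK1, PGAM1, ENO1, PKM, LDHA and LDHB, where 15.5% of all symbols were lower by that much. In all, 19 genes had a ratio below 1 and 16 above it, and the median log2 change of -0.12 lay near the -0.09 of all symbols. The plot of levels by gene shows that the abundant enzymes and the scarce genes lay on opposite sides of no change.

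**Figure D1:**
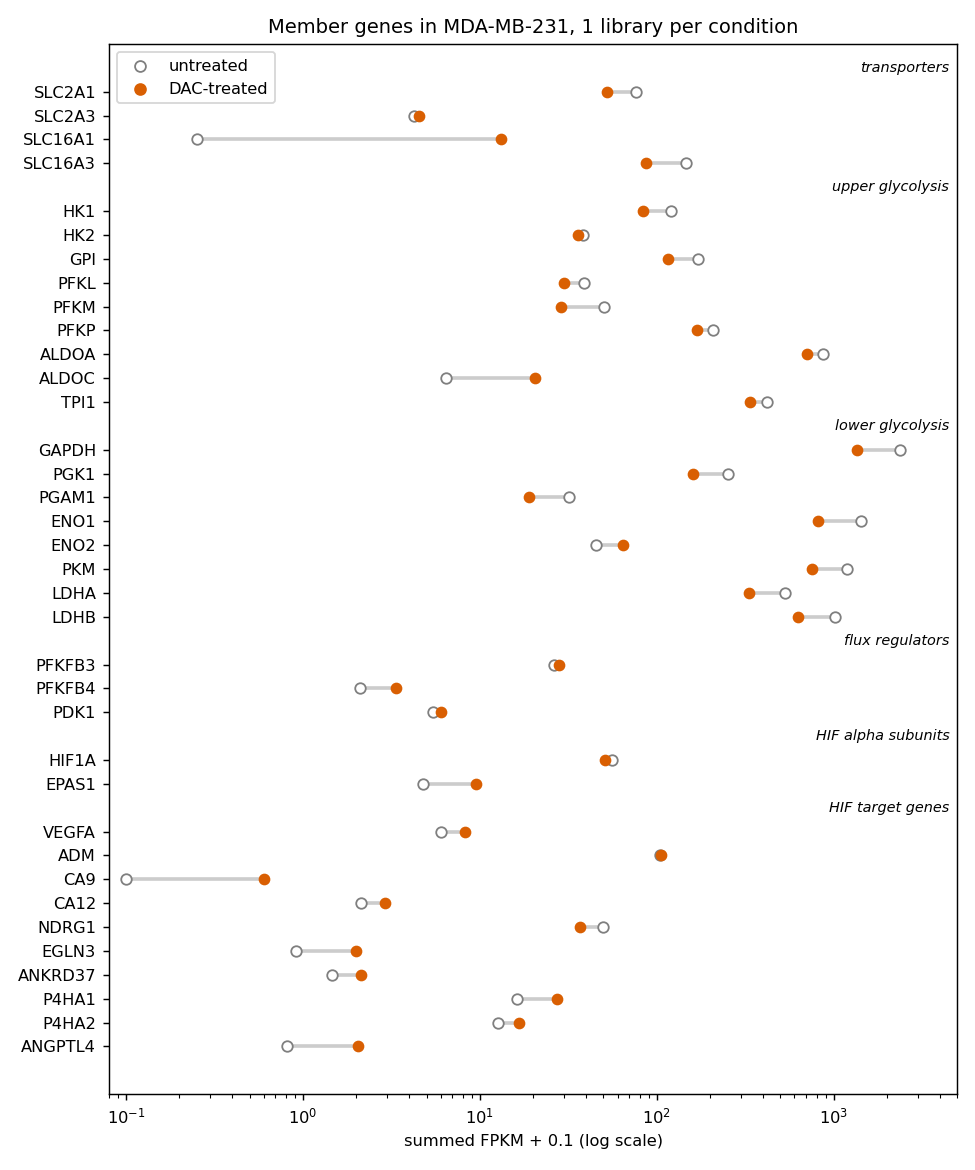
Summed FPKM of the 36 genes in MDA-MB-231, plus 0.1 on a log axis, grouped by role; open circles are the untreated and filled circles the DAC-treated library, 1 library each. Most enzymes lay lower after DAC, from GAPDH at 2374 and 1349 FPKM downwards, while SLC16A1 went from 0.152 to 13.1 FPKM.

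Among the transporters, SLC16A1 stood apart. SLC16A1 (hg19, chr1:113454469-113500215, minus strand) encodes MCT1, a carrier that moves lactate and pyruvate with a proton in either direction. Its level was 0.152 FPKM in the untreated library and 13.1 in the DAC-treated one, a ratio of 86.4. In reads of its largest transcript these are 24 (95% Poisson interval 15.4 to 35.7) against 2039 (1951 to 2129), intervals that cover counting error only. With 1 FPKM added to each value its log2 change of 3.62 ranked 63 of 23617 symbols. It was the only gene of the 35 whose Cuffdiff bounds did not overlap, 0 to 0.635 against 6.25 to 19.7, where 1.43% of all symbols had such bounds for their largest transcript. Those bounds come from the authors' model and not from replicate libraries.

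SLC16A3, which encodes MCT4, the carrier that chiefly exports lactate from glycolytic cells, was at 146 FPKM untreated and 87.2 after DAC, a ratio of 0.596. Its transcripts went separate ways: the largest, of 2043 bases, was at 111 and 43.9 FPKM, a ratio of 0.394, and another was at 21.4 and 36.6. As a share of the 2 carriers together, SLC16A1 went from 0.104% to 13.1%, so that SLC16A3 was still the larger by far. SLC2A1, the common glucose transporter GLUT1, was at 76.4 and 52.2 FPKM, and SLC2A3, the high-affinity transporter GLUT3, at 4.16 and 4.41. BSG, the chaperone that carries both monocarboxylate transporters to the membrane, was at 535 and 436 FPKM.

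The 17 enzymes from hexokinase to lactate dehydrogenase were lower as a body. Their summed level was 8793 FPKM untreated and 5646 after DAC, a ratio of 0.642, and their share of all FPKM went from 1.49% to 1.18%. In 15 of the 17 the ratio was below 1, as it was in 56.9% of all symbols at 1 FPKM, in 66.3% of those at a mean of 10 to 100 FPKM and in 78.6% of those above, the levels of the enzymes. Of the 17, 14 stayed below 1 when the DAC values were divided by the median ratio or by the ratio of totals, the exception being HK2. By the ratio of totals these 14 ran from 0.697 for GAPDH to 0.992 for ALDOA. PFKP at 0.991, TPI1 at 0.986 and PFKL at 0.939 were also close to 1. The share of all symbols below 1 after these divisions was not counted. None of the 17 passed the 2-fold threshold downwards. At 1.5-fold, 8 were lower, and 9 of the 35 members, beside the 15.5% of all symbols and 24.5% of those at 100 FPKM or more. That count of 9 was 5 after division by the median ratio and 0 after division by the ratio of totals, so it depends on how the libraries are scaled.

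The lower steps, from GAPDH to lactate dehydrogenase, held 7 of these 8. GAPDH (chr12:6643678-6647540, plus strand), which oxidises glyceraldehyde 3-phosphate, was the most abundant gene of the list, at 2374 FPKM untreated and 1349 after DAC, a ratio of 0.568. ENO1 (chr1:8921059-8939249, minus strand), the common enolase, was at 1424 and 812, a ratio of 0.570. PKM, pyruvate kinase, was at 1184 and 756. Of PKM, the largest transcript, of 2501 bases, which encodes the M2 form, held 1119 and 691 FPKM, and both transcripts of the M1 form were below 1 FPKM in either library. LDHA and LDHB, the subunits of lactate dehydrogenase, were at 532 and 331 and at 1021 and 627. Their ratios were 0.623 and 0.614, and LDHA made up 34.3% of the pair untreated and 34.6% after DAC. The largest LDHA transcript, of 2090 bases, is annotated as non-coding and held 316 and 190 FPKM. The sums and shares of LDHA are therefore not those of its coding RNA alone. PGK1, which makes the first ATP of the pathway, was at 253 and 159, and PGAM1, phosphoglycerate mutase, at 31.9 and 18.8. The median ratio of the 8 genes was 0.619. GAPDH, PGAM1, LDHA and ENO1 have processed pseudogenes, and how reads shared with them were assigned is not given in the sources used here.

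ENO2, the neuronal enolase, was the exception among the lower steps, at 45.0 FPKM untreated and 64.7 after DAC, a ratio of 1.44. Its reads were 4236 (4109 to 4366) and 6057 (5905 to 6212). As a share of the 2 enolases ENO2 went from 3.06% to 7.38%.

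In the upper steps the ratios were nearer to 1, with a median of 0.804 over 9 genes. GPI, glucose-6-phosphate isomerase, was at 170 and 115 FPKM, ALDOA, the common aldolase, at 875 and 708, and TPI1, triosephosphate isomerase, at 421 and 338. Of the hexokinases, which trap glucose as its phosphate, HK1 was at 120 and 83.9 and HK2 at 38.003 and 36.01, so that HK2 went from 24.1% to 30.04% of the pair. Of the phosphofructokinase subunits, which set the committed step, PFKP was at 209 and 169, PFKL at 38.8 and 29.7 and PFKM at 49.96 and 28.7, and PFKM was the one enzyme of the upper steps more than 1.5-fold lower.

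ALDOC (chr17:26900133-26903966, minus strand), an aldolase best known from brain, was the only enzyme more than 2-fold higher. It was at 6.36 FPKM untreated and 20.5 after DAC, a ratio of 3.23, in 387 (349 to 428) and 1241 (1173 to 1312) reads. Its Cuffdiff bounds, 1.26 to 11.4 and 9.49 to 31.5, overlapped. Its share of the 2 aldolases went from 0.721% to 2.82%.

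**Figure D2:**
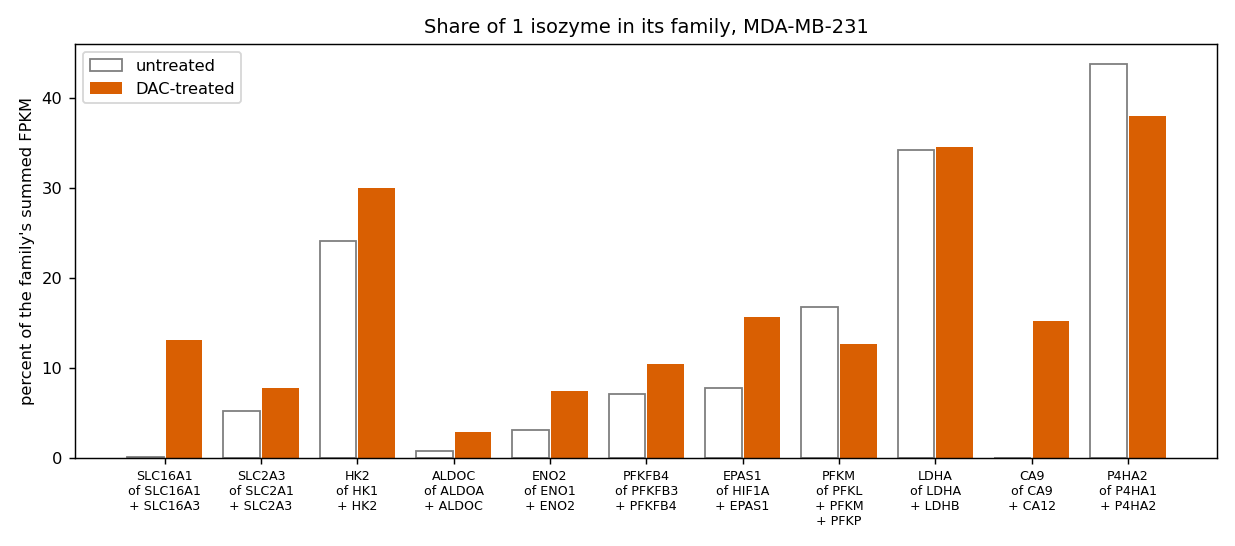
Share of 1 isozyme in the summed FPKM of its family in MDA-MB-231, in percent; open bars are the untreated and filled bars the DAC-treated library, 1 library each. The scarcer of SLC16A1 and SLC16A3 went from 0.104% to 13.1%, while LDHA stayed at 34.3% and 34.6%.

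In 8 of the 10 pairs the scarcer gene held a share higher by over 1 percentage point after DAC, namely SLC16A1, SLC2A3, HK2, ALDOC, ENO2, PFKFB4, EPAS1 and CA9, as the plot of isozyme shares shows. CA9 did not reach 1 FPKM. Scarce symbols as a whole had higher ratios, with a median of 1.05 at a mean of 1 to 10 FPKM and 0.808 at 100 FPKM or more. The same count was not made for other pairs of genes. The share of LDHA, summed with its non-coding transcript, was level, and P4HA2 went from 43.8% to 37.98% of the 2 prolyl 4-hydroxylase alpha subunits. Of the 3 phosphofructokinase subunits, PFKM went from 16.8% to 12.6%, PFKP from 70.2% to 74.3%, and PFKL stayed at 13.1%. Each share is a ratio within a library, so it does not move with the scaling of the libraries, and it has no replicate check either.

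Level and direction went together in these data, among all symbols and among the 35. Of the 998 symbols with a mean of 100 FPKM or more, 78.6% had a ratio below 1 and the median was 0.808. The 13 members at that level had a median of 0.639, with 12 below 1. Of these 13, 7 were more than 1.5-fold lower, where 24.5% of the 998 symbols were. Of the 5967 symbols at a mean of 10 to 100 FPKM the median ratio was 0.889, and for 12 members it was 0.933. At a mean of 1 to 10 FPKM the median of 5100 symbols was 1.05, and the 10 members had a median of 1.56 with none below 1. Of these 10, SLC16A1, EGLN3 and ANGPTL4 were below 1 FPKM untreated, so they could pass the filter only by being higher. The mean level is taken over both libraries, so it is not independent of the ratio. The part of the level in these ratios was not tested.

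**Figure D3:**
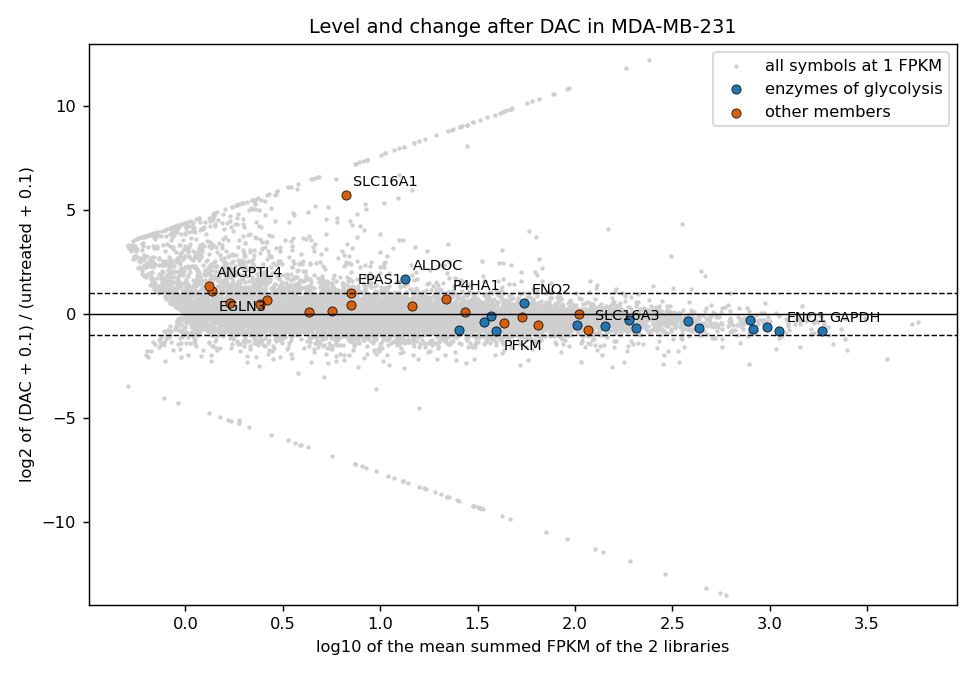
Log2 of the DAC-treated over the untreated level, with 0.1 FPKM added to each, against the log10 mean level in MDA-MB-231, for the 12525 symbols at 1 FPKM in grey, enzymes of glycolysis in blue and other members in orange; dashed lines mark 2-fold and the outer grey diagonals are symbols at 0 in 1 library. The 13 members with a mean of 100 FPKM or more lie mostly below 0, with 12 of them below a ratio of 1.

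The flux regulators PFKFB3, PFKFB4 and PDK1 were level or above 1, with ratios of 1.08 to 1.63. PFKFB3 and PFKFB4 make fructose 2,6-bisphosphate, the activator of phosphofructokinase, and PDK1 holds pyruvate back from the mitochondrion. PFKFB4 was at 1.999 FPKM untreated and 3.25 after DAC, PFKFB3 at 26.1 and 28.1 and PDK1 at 5.34 and 5.91.

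Of the 2 HIF alpha subunits, HIF1A was at 55.5 and 50.9 FPKM and EPAS1 (chr2:46520806-46613836, plus strand) at 4.67 and 9.42, a ratio of 2.02. EPAS1 had 992 (931 to 1056) reads untreated and 1989 (1903 to 2078) after DAC, its bounds of 1.96 to 7.37 and 4.85 to 14.0 overlapped, and it lay just past the threshold, with a ratio of 1.84 when 1 FPKM was added to each value. Its share of the 2 subunits went from 7.76% to 15.6%. RNA levels do not show how much HIF protein was present, which is set mainly by degradation.

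The 10 target genes outside glycolysis had no common size of change. Of the 9 at 1 FPKM, 2 rose more than 2-fold, where 10.8% of all symbols did. In 1 the ratio was below 1, as in 56.9% of all symbols, and the median ratio was 1.39. The 2 risers, ANGPTL4 and EGLN3, reached 1 FPKM only after DAC, so they could pass the filter only by being higher. ANGPTL4 (chr19:8428173-8439254, plus strand), a secreted inhibitor of lipoprotein lipase, was at 0.710 FPKM untreated and 1.95 after DAC, a ratio of 2.74. EGLN3 (chr14:34393433-34931980, minus strand), a prolyl hydroxylase that marks HIF alpha for degradation, was at 0.820 and 1.90, a ratio of 2.32, in 88 (70.6 to 108) and 203 (176 to 233) reads. With 1 FPKM added to each value, which weighs on scarce genes, the ratios were 1.72 for ANGPTL4 and 1.60 for EGLN3, both under the threshold. P4HA1, a collagen prolyl hydroxylase subunit, was at 16.2 and 27.2, and ANKRD37 at 1.36 and 2.02. VEGFA, the angiogenic growth factor, was at 5.97 and 8.20, and CA12, a membrane carbonic anhydrase, at 2.03 and 2.82. ADM, the vasodilator peptide adrenomedullin, was level at 104 and 105, and NDRG1 was the one target below 1, at 49.5 and 36.9.

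CA9 (chr9:35673925-35681156, plus strand), a carbonic anhydrase that is among the tightest reporters of hypoxia, did not reach 1 FPKM. It was at 0 untreated and 0.507 FPKM after DAC, with 29 reads (19.4 to 41.6). That count was rounded from 28.6 and comes from a transcript of 1554 bases, shorter than those that gave the worth of 1 read. Against a chosen floor of 3 reads, 0.0529 FPKM in the untreated library, the ratio was 9.58. That ratio is not a lower limit. The Poisson interval of the 0 untreated reads ran up to 3.69, and that of the DAC-treated reads down to 19.4.

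Promoter sequence is shown for the members past 2-fold with a RefSeq window, for CA9 and, as 1 example of the genes listed in HMLER, for PFKFB4, because HIF can bind there and DAC acts on CpG sites. The letters are the 250 bases before the start annotated in RefSeq, 5′ to 3′ on the strand of the gene. They are from RefSeq promoters of build GRCh38.p14 that matched GRCh37/hg19 at 1 place each. The gene spans printed in this report come from GENCODE, an annotation whose outermost start can differ. Only the CA9 window ends just before its span begins. That of ALDOC crosses the start of its span, and those of EPAS1, EGLN3, ANGPTL4 and PFKFB4 lie inside theirs. Capitals mark ACGTG or GCGTG on either strand, where CACGT and CACGC are their reverse complements and neighbouring matches may overlap. The windows are chr17:26903914-26904163 (ALDOC), chr2:46524296-46524545 (EPAS1), chr14:34420281-34420530 (EGLN3), chr19:8428789-8429038 (ANGPTL4), chr3:48594237-48594486 (PFKFB4) and chr9:35673675-35673924 (CA9).
ALDOC: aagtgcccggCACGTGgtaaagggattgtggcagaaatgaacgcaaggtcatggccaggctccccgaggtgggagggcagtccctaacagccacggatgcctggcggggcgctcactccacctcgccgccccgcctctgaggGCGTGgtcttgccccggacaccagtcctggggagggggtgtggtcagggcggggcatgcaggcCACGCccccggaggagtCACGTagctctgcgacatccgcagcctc
EPAS1: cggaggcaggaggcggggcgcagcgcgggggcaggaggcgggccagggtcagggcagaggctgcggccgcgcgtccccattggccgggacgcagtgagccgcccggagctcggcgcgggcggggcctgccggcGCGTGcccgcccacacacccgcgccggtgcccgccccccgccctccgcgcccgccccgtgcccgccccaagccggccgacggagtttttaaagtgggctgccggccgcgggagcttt
EGLN3: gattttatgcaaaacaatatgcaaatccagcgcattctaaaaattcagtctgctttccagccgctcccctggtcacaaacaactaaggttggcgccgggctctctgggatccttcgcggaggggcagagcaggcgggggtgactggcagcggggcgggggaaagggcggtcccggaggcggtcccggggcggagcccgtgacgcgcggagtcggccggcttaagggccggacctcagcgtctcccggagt
ANGPTL4: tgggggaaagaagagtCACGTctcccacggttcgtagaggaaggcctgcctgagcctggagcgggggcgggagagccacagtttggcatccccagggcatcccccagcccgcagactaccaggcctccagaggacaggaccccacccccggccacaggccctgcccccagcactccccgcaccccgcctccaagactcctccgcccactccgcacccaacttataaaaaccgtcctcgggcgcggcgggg
PFKFB4: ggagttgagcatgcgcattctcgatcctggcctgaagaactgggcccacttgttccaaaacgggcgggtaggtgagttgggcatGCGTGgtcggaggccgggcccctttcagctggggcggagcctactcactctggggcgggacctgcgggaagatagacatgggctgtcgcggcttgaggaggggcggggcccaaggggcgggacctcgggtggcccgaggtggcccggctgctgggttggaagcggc
CA9: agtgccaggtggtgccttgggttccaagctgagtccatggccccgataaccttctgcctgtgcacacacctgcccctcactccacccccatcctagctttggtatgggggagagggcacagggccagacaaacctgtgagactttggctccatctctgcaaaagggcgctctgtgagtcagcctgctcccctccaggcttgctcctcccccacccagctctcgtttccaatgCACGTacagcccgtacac
The ALDOC window held 5 matches and 18 CpG sites, the EPAS1 window 1 and 38, the EGLN3 window 0 and 23, the ANGPTL4 window 1 and 16, the PFKFB4 window 1 and 18, and the CA9 window 1, 18 bases before the start, and 5. The windows of the other genes listed in HMLER are not printed: that of ADM held 1 match and 16 CpG sites, that of PFKFB3 1 and 34 and that of P4HA2 0 and 9. Of the 36 members, 32 had a window, and 20 of them (62.5%) held either motif, as did 43.2% of all 35116 windows and 58.7% of the 8958 of symbols at 1 FPKM. ACGTG alone was in 12 of 32 (37.5%), in 18.5% of all and in 23.9% of those at 1 FPKM. The median number of CpG sites was 22 for the members, 11 for all windows and 21 for symbols at 1 FPKM. A match of letters shows neither binding nor methylation, neither of which was measured here.

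In HMLER, 5 of the 35 genes at 1 FPKM in MDA-MB-231 were listed as higher after DAC, where 10.9% of all such symbols were. They were ADM, ANGPTL4, P4HA2, PFKFB3 and PFKFB4, and none is an enzyme of the pathway itself. ADM (chr11:10326620-10328944, plus strand) was at 5.46 FPKM untreated and 22.2 after DAC, a ratio of 4.07. PFKFB4 (chr3:48555117-48599448, minus strand) was at 7.14 and 21.1, a ratio of 2.95. ANGPTL4 summed over its transcripts was at 26.9 and 102.4, a ratio of 3.81. It was the 1 gene more than 2-fold higher in both lines, where 3.66% of all symbols were. The tables of the lines were normalized separately, so only ratios, and not levels, are set side by side.

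Transcripts of 1 gene moved apart. Of the 95 transcripts of the 36 genes, 64 reached 1 FPKM in MDA-MB-231, and of these 11 rose past 2-fold, where 13.9% of all transcripts did, and 7 fell past it, where 10.0% did. Of the 7 member transcripts listed in HMLER, 5 were at 1 FPKM in MDA-MB-231, and 3 of these 5 were more than 2-fold higher there, where 40.7% of all transcripts listed in HMLER were. These 3 belonged to P4HA2, PFKFB3 and ANGPTL4. Those of P4HA2 and ANGPTL4 reached 1 FPKM only in the DAC-treated library, so they could pass the filter only by being higher, and the count of 3 supports nothing on its own.

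P4HA2 (chr5:131525840-131631008, minus strand) is the other collagen prolyl hydroxylase subunit. Its transcript of 2229 bases was at 0.653 FPKM untreated and 4.71 after DAC in MDA-MB-231, a ratio of 7.21, and at 7.69 and 25.7 in HMLER, a ratio of 3.34. Its main transcript in MDA-MB-231, of 2093 bases, was at 10.2 and 10.3, and was not listed in HMLER. PFKFB3 (chr10:6186897-6296607, plus strand) had 1 transcript of 4549 bases at 5.88 and 11.9 in MDA-MB-231, a ratio of 2.03, and at 8.34 and 17.5 in HMLER, a ratio of 2.10. The other, of 4223 bases, was at 20.2 and 16.2 and was not listed in HMLER. The gene sums did not pass 2-fold, with ratios of 1.32 and 1.08.

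ANGPTL4 had its 1903-base transcript at 0.209 and 1.94 FPKM in MDA-MB-231, a ratio of 9.27, and at 25.1 and 91.5 in HMLER, a ratio of 3.64. Its 1789-base transcript was at 0.501 and 0.00566 in MDA-MB-231 and at 1.80 and 10.97 in HMLER. The Cuffdiff bounds of these transcripts overlapped between the MDA-MB-231 libraries, 0 to 2.25 against 0.0541 to 9.36 for P4HA2. Cuffdiff divides reads among overlapping transcripts, so a shift between 2 of them is less certain than a change of their sum.

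**Figure D4:**
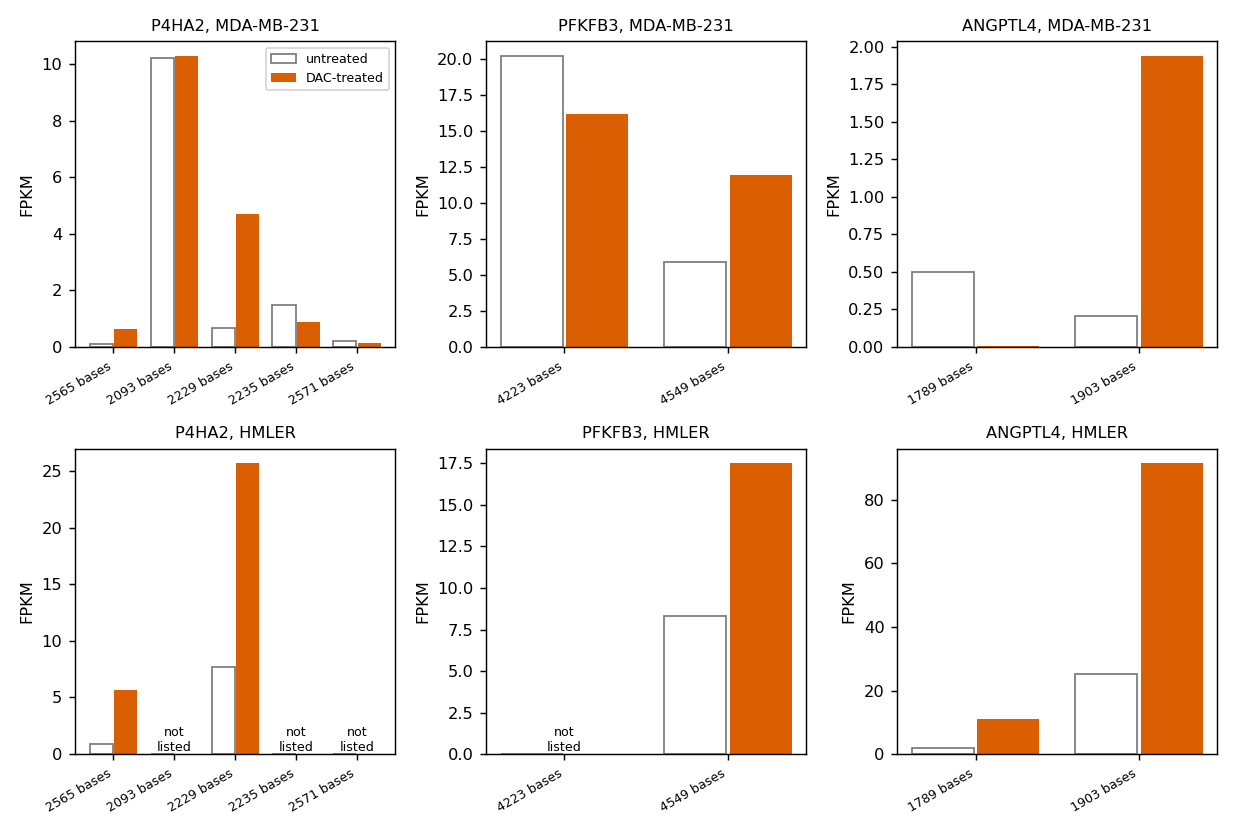
FPKM of each transcript of P4HA2, PFKFB3 and ANGPTL4, named by its length, in MDA-MB-231 (top, 1 library per condition) and HMLER (bottom, the authors' merged values of 2 libraries per condition); open bars are untreated and filled bars DAC-treated. The P4HA2 transcript of 2229 bases was higher after DAC in both lines, at 0.653 and 4.71 FPKM and at 7.69 and 25.7 FPKM.

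The neighbouring genes of these pathways were read from companion lists. Of 41 other glycolytic isozymes and regulators, 27 reached 1 FPKM in MDA-MB-231, 2 rose past 2-fold, where 10.8% of all symbols did, and 0 fell past it, where 4.82% did, and the median ratio was 1.02. The risers were HKDC1, a hexokinase-like enzyme, at 0.397 and 1.42 FPKM, and TXNIP, an inhibitor of glucose uptake, at 34.2 and 69.3. In HMLER 5 of the 41 were listed as higher, beside 10.9% of all symbols at 1 FPKM in MDA-MB-231. They were HKDC1 at 0.367 and 2.60 FPKM, and PGAM2, C12orf5, SLC2A6 and PFKFB2 with ratios of 2.34 to 5.71. These last 4 were not past 2-fold in MDA-MB-231. Of 14 genes of gluconeogenesis and the pentose phosphate pathway, 11 reached 1 FPKM, 0 were higher and 1 lower, with a median of 0.791. That gene was FBP1 (chr9:97365415-97402531, minus strand), the gluconeogenic bisphosphatase that opposes phosphofructokinase, at 32.1 FPKM untreated and 7.15 after DAC, a ratio of 0.223.

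Of 12 further genes of the HIF system (partners, hydroxylases, the VHL ligase), 11 reached 1 FPKM in MDA-MB-231 and none passed 2-fold there in either direction, with a median of 0.959. In HMLER 3 of the 12 were listed as higher, beside 10.9% of all symbols at 1 FPKM in MDA-MB-231. HIF3A, an inhibitory alpha subunit, had a ratio of 8.66, but was at 0 in MDA-MB-231 and so lies outside that share. CITED2, which competes with HIF for its coactivator, had 4.03, and TCEB1, elongin C of the VHL ligase, 3.55. Of 40 other HIF target genes, 36 reached 1 FPKM in MDA-MB-231, 9 rose past 2-fold and 7 fell past it, beside 10.8% and 4.82% of all symbols, with a median of 1.04. STC2 (chr5:172741726-172755450, minus strand), a secreted glycoprotein hormone, was at 0.0502 and 4.72 FPKM, in 11 (5.49 to 19.7) and 1033 (971 to 1098) reads. SLC6A8, the creatine transporter, was at 1.47 and 6.59, TMEM45A at 2.73 and 11.4, and RBPMS, an RNA-binding protein, at 1.59 and 5.71. EDN1, the vasoconstrictor endothelin-1, was lower, at 37.8 and 10.7, a ratio of 0.284. In HMLER 5 of the 40 were listed as higher, beside 10.9% of all symbols at 1 FPKM in MDA-MB-231.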

How the data were processed

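Polyadenylated RNA of both cell lines was sequenced with and without DAC. Per the labels and methods, the authors used TopHat2 with the genome build hg19, and Cuffdiff gave them an FPKM per RefSeq transcript and, in MDA-MB-231, lower and upper bounds of that signal. Versions, mapping filters and library scaling are not given in the sources used here. The deposited FPKM of HMLER was 1 merged value per condition. The authors' columns of fold changes, test statistics, p and q values were not used. The 36 members and the companion lists were chosen with earlier results of these data known. FPKM was summed over the transcripts of a symbol, and a symbol was called at a ratio over 2 or below its inverse if either condition reached 1 FPKM, with no pseudocount and no rescaling. All members were described. Of each companion list at most 5 genes past the threshold were named, by size of change, and BSG, the pyruvate dehydrogenase and pentose phosphate genes and those named for HMLER alone were chosen after their values were seen. The worth of 1 read, from which reads were inferred, came from FPKM steps of transcripts over 2000 bases, alone in symbol and locus. For this, 240 bases were taken off each length. Of 651 low values per library, 100% lay within 0.1 of a whole read. The step was picked by that share on the same values, so the 20% chance of a fixed step is no yardstick. Simulated whole reads, made with the same length rule, gave the step back, which checks the search only. Reads of ALDOC (1651 bases) and CA9 (1554 bases) came from shorter transcripts, and those of SLC16A1 from the largest of 2. These lay outside that check. Poisson intervals at 95% cover counting error only. No test was possible with 1 library or 1 merged value per condition. Alternatives were the largest transcript, other filters, pseudocounts, scalings and folds. Python 3.11.15, pandas 2.3.3, numpy 2.4.6 and scipy 1.17.1 were used.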

Additional observations from a re-analysis of the deposited data

Results flagged for a closer look

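Of the 40 other HIF target genes, 5 were listed in HMLER, and 3 of these fell past 2-fold in MDA-MB-231. The HMLER values cover only transcripts that rose, and a gene was summed over those alone, while in MDA-MB-231 it was summed over all its transcripts. The 2 ratios of a gene may thus rest on different transcripts, and the direction of the whole gene in HMLER is not known. EDN1, endothelin-1, had a DAC/untreated ratio of 0.284 in MDA-MB-231 and 32.7 in HMLER. IGFBP3, a carrier of insulin-like growth factors, had a ratio of 0.368 in MDA-MB-231, from 174 to 64.0 FPKM, and 3.64 in HMLER. KLF10, a TGF-beta-induced repressor, had a ratio of 0.468 in MDA-MB-231, from 33.3 to 15.6 FPKM, and 4.13 in HMLER. The other 2 were higher in both lines, STC1 with ratios of 2.18 and 2.27 and RBPMS with 3.59 and 8.05. The difference between the lines was not tested, since MDA-MB-231 had 1 library per condition and the HMLER values were merged.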

How the results depend on the processing

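No paired analysis was possible because MDA-MB-231 had 1 library per condition and the HMLER libraries were merged, which also left no replicate to leave out. Of 210 checks of single members' ratios, 203 stayed on the same side of the 2-fold threshold, 4 fell below it and 3 moved past it. Many of these checks could not differ. Keeping only transcripts that Cuffdiff marked OK left every member's ratio unchanged, and for a gene with 1 transcript the largest transcript is the whole sum. The count of 203 is therefore not a measure of robustness. In 5 checks of 3 genes the ratio crossed 1, none of them past 2-fold: HK2 (1.04 and 1.16) and HIF1A (1.01 and 1.13) under division by the median ratio and by the ratio of totals, and PFKFB3 (0.800) by the largest transcript. The 5 members more than 2-fold higher became 3 with 5 FPKM required (ALDOC, EPAS1, SLC16A1), 2 with 1 FPKM in both conditions (ALDOC, EPAS1) and 2 with a pseudocount of 1 (ALDOC, SLC16A1), and under each of these 0 were higher in both lines in place of 1. No member was more than 2-fold lower, but 2 were by the largest transcript (SLC16A3 and PFKM) and 9 were at 1.5-fold. The members' median log2 change of -0.12 was -0.32 by the largest transcript, -0.32 with 5 FPKM, -0.31 with 1 FPKM in both, 0.0084 after division by the median ratio and 0.17 after division by the ratio of totals, where that of all symbols was 0.039 and 0.20, and 0.086 with no filter. The 9 members more than 1.5-fold lower became 5 and 0 under those scalings. Of all symbols, the 1350 higher became 5193 with no filter, 465 with 5 FPKM, 494 with 1 FPKM in both, 863 with a pseudocount of 1 and 2124 at 1.5-fold; the 604 lower became 1080 with no filter, 1944 at 1.5-fold and 329 after division by the ratio of totals, which left 841 more than 1.5-fold lower. By the largest transcript, SLC16A1 held 22.8% of its pair after DAC, and ALDOC 1.29% and 4.99%. Filters and pseudocounts act by construction on scarce genes; other causes were not tested. Division by the ratio of totals and the alternatives of the 1.5-fold, enzyme and isozyme counts were chosen after seeing the data. With 1 library per condition, depth gives counting error only, and SLC16A1, CA9, EGLN3 and STC2 rest on under 100 untreated reads. ANGPTL4, at 0.710 FPKM untreated, has overlapping transcripts, and its reads were not inferred.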

Other observations

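The pyruvate dehydrogenase complex, which passes pyruvate into the citric acid cycle, was lower in all 5 of its subunit genes measured in MDA-MB-231, none past 2-fold, where 66.3% of all symbols at a mean of 10 to 100 FPKM and 78.6% of those above were below 1. DLD was at 47.6 FPKM untreated and 28.4 after DAC, DLAT at 43.0 and 29.1, PDHA1 at 51.4 and 39.9, PDHB at 146.2 and 116.5, and PDHX at 32.2 and 25.9. The ratios ran from 0.596 to 0.804, and after division by the ratio of totals they were 0.731 for DLD, 0.829 for DLAT, 0.952 for PDHA1, 0.977 for PDHB and 0.986 for PDHX. In the pentose phosphate pathway 3 abundant enzymes were also lower, TKT, transketolase, at 310.8 and 173.1 FPKM, PGD at 119.2 and 74.2 and TALDO1 at 250.7 and 187.0. The genes were chosen after their values were seen, and these values have no replicate check.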
